A study of Mus musculus with 9 samples.

Results

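The genes described here are the 88 annotated small non-coding RNA genes of 3 classes, miRNA, snoRNA and scaRNA, that took enough reads to be followed over time in mouse ESCs (embryonic stem cells). A gene was included when its annotated biotype was one of these classes and when it was present in the filtered expression table with a mean of at least 0.5 CPM (a gene's reads scaled to the depth of its library) over the 9 libraries. The FPKM table listed 3766 genes of these classes, of which 257 were in the filtered table and 88 passed the minimum, with 16 listed as miRNA, 72 as snoRNA and 0 as scaRNA. Members were therefore selected on their measured mean level, and that level is given as a description only. The time comparisons were not used in the choice, but the mean included every time point, so a gene could pass through one time point alone. Of the 88 members, 72 held a mean of at least 0.5 CPM at each of the 3 time points, 12 were under it at 18 h or 24 h but not at 0 h, 2 were under it at 0 h only, and 2 (Mir1957a and Gm22858) held it at 24 h alone. The 3 members just inside the minimum were Snord89 at 0.519 CPM, Gm22858 at 0.514 CPM and Snord93 at 0.509 CPM, and the 3 genes just outside it were Gm25945 at 0.492 CPM, Gm24916 at 0.485 CPM and Gm22748 at 0.470 CPM.

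The libraries came from an ESC line that carries a forced E2A homodimer, in which a tether joins copies of the basic helix-loop-helix factor E47 with a FLAG tag, under a doxycycline (dox) responsive promoter inserted upstream of Hprt. Cells were kept in LIF/serum, which sustains self-renewal, and were taken without dox (0 h) or after 18 h or 24 h in dox (1 µg/ml), and each time point had 3 biological replicates. All groups carried the transgene, and cells given dox without it were not analysed here, so an effect of dox alone cannot be told apart from that of the homodimer. None of the 9 libraries was without dox at 18 h or 24 h, so time in culture cannot be told apart from either. The sample titles and treatment entries give 18 h and 24 h, whereas the treatment protocol names 24 h and 48 h, and the former were used.

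The 9 libraries held between 22028363 and 26471569 reads on genes, and members took between 0.0206% and 0.0716% of them. The ESC label was checked on 8 pluripotency markers, whose summed level was 1299 to 1975 FPKM at 0 h, 1018 to 1614 at 18 h and 974 to 1586 at 24 h, with none at 0 reads. Among these, Nanog was upregulated by less than the minimum fold-change and the Nodal co-receptor gene Tdgf1 was downregulated (log2 fold-change −1.47 at 24 h). Markers of fibroblasts or feeder cells (6 of 7 in the table) summed to between 6.02 and 14.6 FPKM in any library. Of the 5 neural markers tested, 2 were upregulated at 24 h, Sox1 and Foxd4, with log2 fold-changes of 2.76 and 4.49. The 5 ran from −0.0045 to 4.49, with a median of 0.58. Of the 5 trophoblast markers tested, 4 were upregulated at 24 h. In bulk libraries, fewer cells of a type and less RNA per cell cannot be told apart.

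A miRNA is cut from a hairpin within a longer primary transcript, first in the nucleus and then in the cytoplasm, and the mature strand pairs with target mRNAs through its seed. Most mouse snoRNAs lie in introns of other genes and are trimmed out of the spliced intron. C/D snoRNAs direct 2′-O-methylation and H/ACA snoRNAs direct pseudouridylation, mainly of ribosomal RNA, and many of their hosts encode ribosomal or other growth-related proteins. The mature forms of both classes lack a poly(A) tail and the library kit selected polyadenylated RNA, so a read on a member may come from a mature RNA, its precursor or the host transcript, and these cannot be told apart.

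The sequences of the members on which the results turn are shown first. The snoRNA genes of Rps12 and Rpl3 are printed because they fell at least 2-fold after dox, which their hosts did not, and a snoRNA pair of Taf1d is printed for contrast. Sequences are those of the annotated genes in GENCODE M21 (GRCm38), 5′ to 3′ on the RNA's strand. Capitals mark the C box (TGATG within the first 25 bases) and the D box (CTGA within the last 15 bases) of a C/D gene, or the ACA that stands 3 bases from the 3′ end of an H/ACA gene.
Snord100 (Rps12, chr10:23785750-23785823, minus strand): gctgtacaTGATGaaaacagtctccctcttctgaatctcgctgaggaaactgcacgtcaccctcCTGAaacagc
Gm23130 (Rps12, chr10:23786470-23786543, minus strand): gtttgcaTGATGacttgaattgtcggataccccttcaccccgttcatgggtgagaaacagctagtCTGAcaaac
Snora33 (Rps12, chr10:23785347-23785475, minus strand): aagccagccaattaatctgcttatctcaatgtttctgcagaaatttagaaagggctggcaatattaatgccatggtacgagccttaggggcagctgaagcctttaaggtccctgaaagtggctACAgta
Snord83b (Rpl3, chr15:80078498-80078591, minus strand): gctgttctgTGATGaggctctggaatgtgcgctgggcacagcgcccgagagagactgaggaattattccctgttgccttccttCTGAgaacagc
Snord43 (Rpl3, chr15:80082847-80082954, minus strand): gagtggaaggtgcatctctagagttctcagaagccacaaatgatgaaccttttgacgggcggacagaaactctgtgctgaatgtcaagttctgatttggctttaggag
Gm24357 (Taf1d, chr9:15315522-15315595, plus strand): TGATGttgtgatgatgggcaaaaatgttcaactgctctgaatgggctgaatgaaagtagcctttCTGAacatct
Gm24455 (Taf1d, chr9:15313802-15313932, plus strand): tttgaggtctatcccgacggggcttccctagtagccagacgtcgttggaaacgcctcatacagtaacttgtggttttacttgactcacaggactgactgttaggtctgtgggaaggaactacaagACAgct

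Snord43 is listed as miRNA in the tables although its symbol is that of a C/D snoRNA, and within its annotated 108 bases neither box lay in the windows searched. On the RNA strand only, the C and D boxes were found in 35 of the 72 snoRNA members (48.6%) and in 348 of 1507 snoRNA genes of the FPKM table (23.1%). The H/ACA ending was found in 25 members (34.7%) and in 272 genes (18.0%), and 12 members held neither. A match is a description of the letters in these windows only.

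Mature sequences were found in RefSeq (GRCm38.p6) for 7 of the 16 members listed as miRNA, and the 10 mature strands carried 10 different seeds, so that none were grouped. Those of the 5 miRNAs among them that are described by name below are printed with the seed, bases 2 to 8, in capitals.
mmu-miR-6236 (chr9:110281353-110281371, plus strand): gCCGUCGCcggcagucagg
mmu-miR-363-3p (chrX:52741697-52741718, minus strand): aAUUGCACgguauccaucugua
mmu-miR-7a-5p (chr13:58392841-58392863, minus strand): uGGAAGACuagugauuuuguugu
mmu-miR-7a-1-3p (chr13:58392800-58392821, minus strand): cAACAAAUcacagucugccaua
mmu-miR-5125 (chr17:23823339-23823358, plus strand): uCUGCCUGggauuuccuugu
mmu-miR-3091-5p (chr2:180257547-180257567, plus strand): cAUGGGUCugguugggcccgc
mmu-miR-3091-3p (chr2:180257580-180257601, plus strand): cGGGCCUGaccagucucaagac

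The first comparison asked how the classes changed from 0 h to 18 h or 24 h. Some snoRNA members fell after dox and none was called higher. Read counts on 11 of the 72 snoRNA members and on Snord43 were downregulated at 18 h, and on 9 snoRNA members and Snord43 at 24 h, when called by limma at an adjusted p of at most 0.05 over all 19210 genes and at least a 2-fold change on the log2(CPM+0.1) scale. This makes 12 of 88 members lower at 18 h (13.6%), beside 0.973% of all genes, and 10 lower at 24 h (11.4%), beside 1.19% of all genes. Among the 5537 genes within the range of mean levels of the snoRNA members, 2% and 2.31% were called lower. With a pseudocount of 0.5 CPM, 7 and 5 members were called lower, and by edgeR with the replicate number as a block, 19 and 18. No member was called higher at 18 h, beside 2.06% of all genes, or at 24 h, beside 2.83% of all genes. By edgeR the counts higher were also 0 at both times, and an unadjusted p under 0.05 with a higher level was met by 0 members at 18 h, beside 13.9% of all genes, and by 1 at 24 h, beside 15.7%, namely Mir1957a, which held the minimum at 24 h alone.

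With the replicate number as a block, 18 members were lower at 18 h, beside 1.6% of all genes, and 13 at 24 h, beside 1.66%, and all of the members called without the block remained called. The 6 members added at 18 h were Snord93 and 5 genes listed as miRNA that are described further on. Those added at 24 h were Gm23969, Gm26448 and Snord93. The calls below are those of the unblocked test, which called 2% and then 2.31% of the 5537 genes at snoRNA member levels lower. The share called among the 14180 genes that held the minimum at each time point was not computed. Of the 72 members that held the minimum at each time point, 8 were called lower at 18 h and 8 at 24 h. The other calls were those of Gm26448, Rnu73b, Snora21 and Snord73a at 18 h and of Gm24336 and Snord73a at 24 h, members whose mean was under the minimum at 18 h or 24 h but not at 0 h, so that their higher 0 h level had a part in their choice. The 2 sets of calls shared 6 members and together named 16, of which 14 lay in 8 ribosomal protein genes. The comparisons at 18 h and 24 h use the same 0 h libraries, so they are not independent.

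Between 18 h and 24 h, 0 members were called lower and 0 higher by limma, as were 0% and 0% of all genes, and edgeR also gave 0 of each. An unadjusted p under 0.05 was met by 2 members that were lower at 24 h than at 18 h (Snord35a and Snord34), beside 2.13% of all genes, and by 3 that were higher (Rnu73b, Snora21 and Gm24245), beside 3.02%, so the member counts of 2 and 3 in 88 were near those of all genes.

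The libraries were also compared without a model. All 3 libraries at 18 h lay below all 3 libraries at 0 h for 37 members (42.0%), beside 13.6% of all genes, and above them for 2 members (2.27%), beside 14.4%. At 24 h the 3 libraries lay below those of 0 h for 31 members (35.2%), beside 14.7% of all genes, and above them for 3 members (3.41%), beside 16.4%. Among the 72 members that held the minimum at each time point, 27 lay below 0 h at 18 h (37.5%) and 26 at 24 h (36.1%), beside 15.05% and 16.49% of the 14180 genes that held it likewise. The median log2 fold-change of the 72 snoRNA members was −0.44 at 18 h and −0.42 at 24 h, and that of all genes tested was 0.00 at both. For the 16 miRNA members it was −0.72 and −0.26. Without 6 genes whose replicates spread widely, grouped after their values were seen, it was 0.04 and 0.00. These 6 ran from −1.41 to −1.10 at 18 h, so leaving them out was bound to raise the 18 h median.

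The second comparison asked whether a member followed its host, the gene on the same strand that contains it. Of the members, 77 had a host, 54 within an intron and 23 overlapping an annotated exon of it, in 49 host genes. Ribosomal protein genes held 33 members. The snoRNA members among these, 31 genes in 16 hosts, had a median log2 fold-change of −0.80 at 18 h and −0.89 at 24 h. Of them 10 and 7 were called lower, beside 2% and 2.31% of all genes in the range of snoRNA member levels. The 25 of these snoRNA members that held the minimum at each time point had medians of −0.74 and −0.87, with 6 and 6 called lower. These 25 kept 55.4% and 54.5% of their summed 0 h level. Their hosts had medians of −0.12 and −0.13, with values from −0.30 to −0.07 at 18 h and from −0.29 to −0.06 at 24 h, and 0 of the 16 were called.

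Summed over the 31 snoRNA genes, the level in ribosomal protein hosts was 72.5, 72.8 and 57.1 CPM at 0 h, 34.4, 34.1 and 39.8 at 18 h, then 37.5, 31.9 and 39.8 at 24 h. The libraries in dox all lay below those without it, and the mean went from 67.5±9.0 (s.d., n=3) to 36.1±3.2 at 18 h, or 53.5% of the 0 h mean, and 36.4±4.0 at 24 h, or 54.0%. Over the same libraries, the summed level of the 16 hosts kept 90.6% of its 0 h mean at 18 h and 90.04% at 24 h.

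The 30 snoRNA members in other hosts kept 71.1% and 69.3% of their summed 0 h level, with medians of −0.40 and −0.42. Their libraries held 69.4, 69.5 and 51.8 CPM at 0 h, 45.9, 45.0 and 44.8 at 18 h, then 42.9, 43.2 and 46.1 at 24 h. Here too the libraries in dox all lay below those without it. Of these 30 members, 1 and 2 were called lower, beside 2% and 2.31% of all genes in the range of snoRNA member levels. The 8 snoRNA members in Taf1d, which encodes a subunit of an RNA polymerase I initiation factor, kept 97.97% and 93.4%. Their libraries held 42.2, 53.4 and 33.5 CPM at 0 h, 41.4, 39.4 and 45.7 at 18 h, then 39.9, 38.9 and 41.8 at 24 h, so that the time points overlapped. The 3 snoRNA members without a host, Snord104, Snora57 and Snora17, kept 83.9% and 86.1%, again with overlapping libraries. The host types were compared by these values and no test was made between them. This split by host type was not planned beforehand, and the Taf1d group is a single host.

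**Figure D1:**
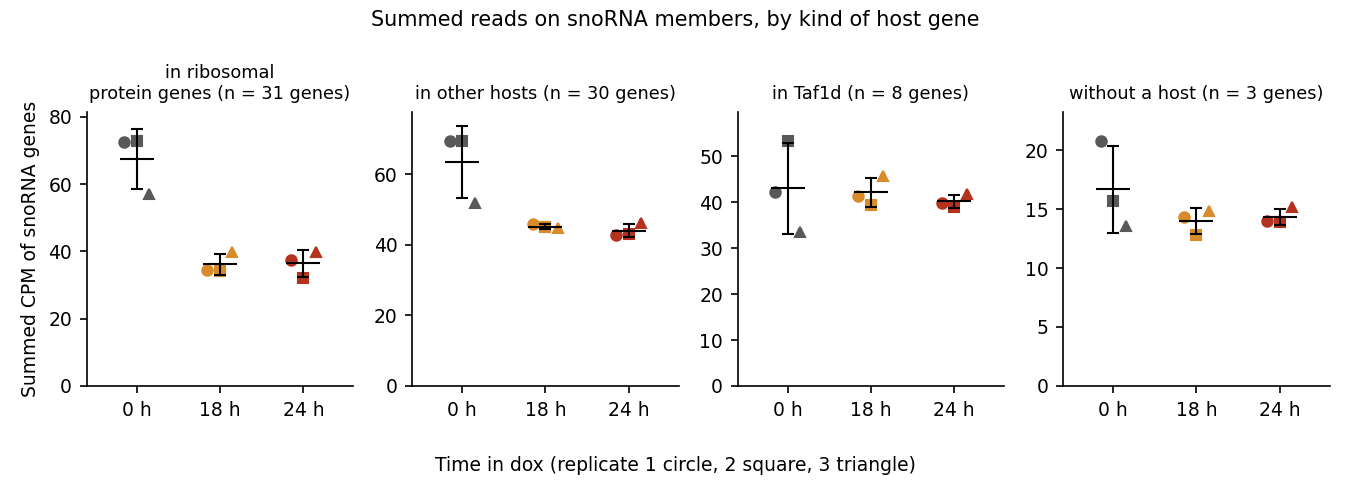
Summed CPM (y axis, from 0) of the snoRNA members by kind of host gene without dox and after 18 h or 24 h in it (x axis). Symbols are libraries, with a circle, square and triangle for replicates 1, 2 and 3, and bars give the mean and s.d. of 3 libraries. In ribosomal protein genes the 0 h libraries lie at 57.1 CPM or above and all others at 39.8 or below. In other hosts they lie at 51.8 or above and at 46.1 or below. The time points overlap for Taf1d and for members without a host.

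Rps12, which encodes a protein of the small ribosomal subunit, holds 3 called members, all of which overlap an annotated exon of it, so that they may share reads with the host. Snord100 stood at 4.14, 3.81 and 3.33 CPM at 0 h, 1.10, 1.58 and 2.08 at 18 h, then 0.906, 1.23 and 1.28 at 24 h. Both time points in dox were below 0 h in every library, with log2 fold-changes of −1.23±0.25 (s.e.; limma adjusted p=0.00885) and −1.65±0.25 (limma adjusted p=0.00112). Gm23130, the member of this host with the most reads, was at 10.1, 10.8 and 7.31 CPM at 0 h, 3.83, 3.31 and 4.08 at 18 h, then 4.14, 2.33 and 5.05 at 24 h. Its log2 fold-changes were −1.29 and −1.32, and again no library in dox reached those of 0 h. The H/ACA gene Snora33 fell from 2.87, 3.85 and 2.96 CPM to 1.36, 1.45 and 1.16 at 18 h (log2 fold-change −1.22, limma adjusted p=0.00555). At 24 h it was at 1.69, 1.23 and 1.87 CPM, and its log2 fold-change of −0.98 was just short of the minimum of 2-fold. The Rps12 host itself had 1526, 1408 and 1416 CPM at 0 h, and its log2 fold-change was −0.12 at both times (limma adjusted p=0.393 and 0.357).

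Rpl3, which encodes a protein of the large subunit, holds Snord83b and Snord43 in its introns. Snord83b was at 3.93, 3.98 and 3.42 CPM at 0 h, 1.32, 1.17 and 1.497 at 18 h, then 1.18, 0.830 and 1.5005 at 24 h. The groups were far apart, with log2 fold-changes of −1.44±0.24 (limma adjusted p=0.00240) and −1.64±0.24 (limma adjusted p=0.000795). Snord43 moved from 1.65, 1.80 and 1.85 CPM to 0.660, 0.767 and 0.790 at 18 h and 0.551, 0.869 and 0.512 at 24 h, or by −1.16 and −1.36 on the log2 scale. Rpl3 passed the adjusted p but not the minimum fold-change, at −0.30 (limma adjusted p=0.0283) and −0.27 (limma adjusted p=0.0402).

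Rpl13a, another large subunit gene, holds Snord35a and Snord34, which were called at 24 h but not at 18 h, and also Snord32a and Snord33, which were not called. Snord35a was at 2.96, 2.64 and 2.31 CPM at 0 h, 1.495, 1.09 and 2.20 at 18 h, then 1.30, 0.553 and 0.988 at 24 h, with log2 fold-changes of −0.74 and −1.45. Snord34 was at 2.24, 1.59 and 1.57 CPM, then 1.23, 1.01 and 1.08, then 0.551, 0.830 and 0.695, with log2 fold-changes of −0.64 and −1.26. For both, all libraries in dox lay below those of 0 h. A second annotated gene, Gm45713, covers the same strand there, so reads may be shared between the annotations.

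Of the snoRNA genes in Rpsa, Gm24044 was called at 24 h and Gm26448 at 18 h, with log2 fold-changes of −1.07 and −1.29. Leaving out 24 h replicate 2 ended the call of Gm24044. Gm26448 held 0.914 CPM on average at 0 h but 0.311 at 18 h and 0.369 at 24 h, and 9 of 21 alternatives ended its 18 h call. With the replicate block it was also called lower at 24 h (limma adjusted p=0.0186). Snord73a and Rnu73b, the C/D genes in Rps3a1, were both called at 18 h, at −1.67 and −1.11. By 24 h Snord73a was still called, at −1.19 (limma adjusted p=0.0477), a call that 10 of 21 alternatives ended, among them log2(FPKM+0.1) and leaving out any of the 0 h libraries, whereas Rnu73b was at −0.36 and its libraries, 0.985, 0.672 and 0.842 CPM, met those of 0 h, 1.27, 1.05 and 0.972 CPM. Snora21 in Rpl23, whose 18 h mean was under the minimum, fell at 18 h from 1.48, 1.76 and 0.740 CPM to 0.308, 0.242 and 0.333 (log2 fold-change −1.78, limma adjusted p=0.00492). At 24 h it was at 0.788, 0.514 and 0.586 CPM, and the log2 fold-change, −0.91, did not pass (limma adjusted p=0.0884). Snord4a in Rpl23a was called at 18 h only, at −1.17, with −0.87 at 24 h. Leaving out 0 h replicate 1 ended this call and that of Rnu73b at 18 h. That some of these members were called at a single time point does not show that the times differed, since 0 members differed between 18 h and 24 h.

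Only 2 of the 16 called members had a host outside the ribosomal protein genes. Gm23639, an H/ACA gene on chromosome 18 within Epb41l4aos, a non-coding host, had the largest change of any member at 24 h. It stood at 2.58, 2.35 and 2.31 CPM at 0 h, 1.28, 0.727 and 0.665 at 18 h, then 0.394, 0.711 and 0.549 at 24 h, with log2 fold-changes of −1.39±0.29 (limma adjusted p=0.00969) and −1.98±0.29 (limma adjusted p=0.000856). Its host was also lower at 24 h, by less than the minimum, at −0.51 (limma adjusted p=0.0204). Gm24336 in Cwf19l1 was at 1.01, 0.964 and 0.879 CPM at 0 h and at 0.433, 0.237 and 0.476 at 24 h, which is −1.16 on the log2 scale, beside −0.12 for its host. The call of Gm24336 at 24 h was ended by 3 of 21 alternatives, among them leaving out 0 h replicate 1 or 24 h replicate 2. Called members rested on few reads, between 4 and 258 in a library.

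**Figure D2:**
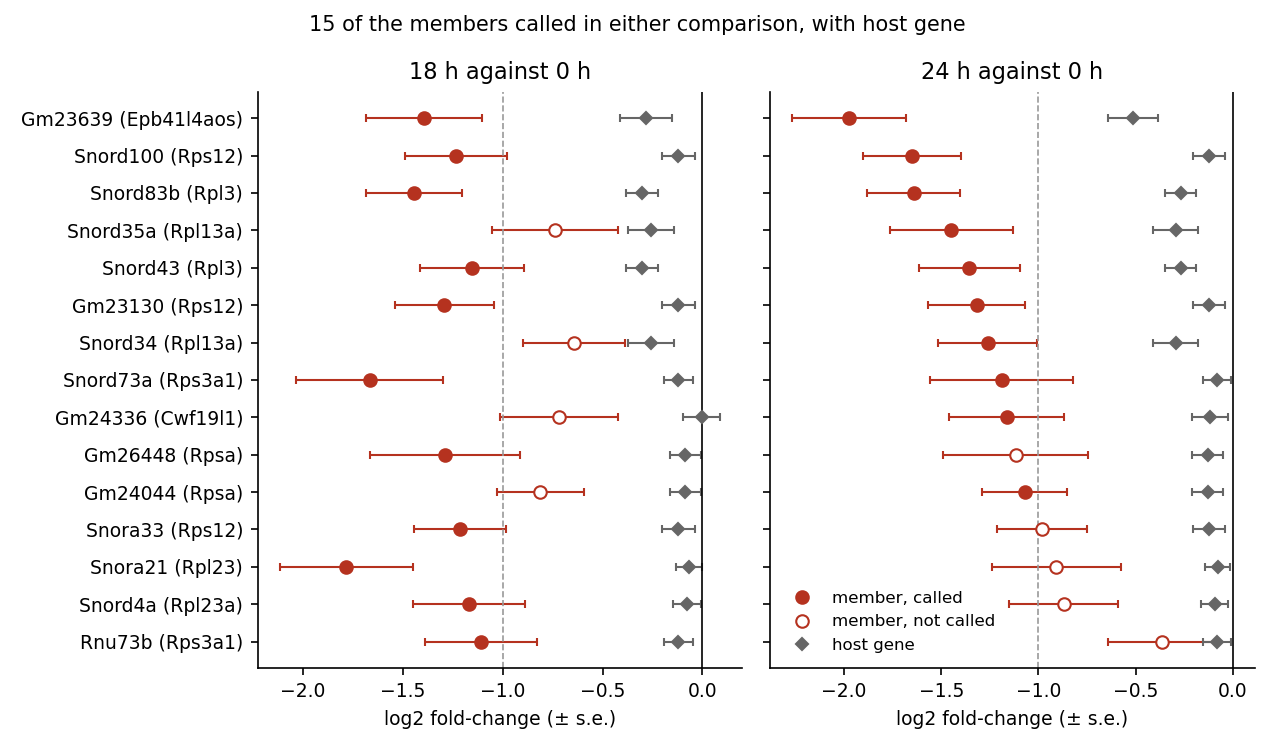
log2 fold-change against 0 h (x axis, ± s.e.) of 15 of the 16 members called at either time, with the host gene in parentheses, at 18 h and at 24 h. Circles are members, filled where called, and diamonds are their hosts, with the dashed line at a 2-fold fall. Members reach −1.98, whereas the hosts stay between −0.51 and 0.00.

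Not all members in ribosomal protein genes fell. Gm22270 and Gm26387 in Rpl5 had log2 fold-changes of 0.55 and 0.29 at 24 h, Snord42b in Rpl23a 0.23, Snora69 in Rpl39 0.20 and Snord58b in Rpl17 0.02. None of these were called. Snord42b and Snord4a share the host Rpl23a but lay at 0.23 and −0.87. At 18 h the range over the 31 genes ran from −1.78 to 0.27, and at 24 h from −1.65 to 0.55.

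Members were also set out by kind of box and by position. Within ribosomal protein genes, the 20 C/D members had medians of −0.77 and −0.88 and the 9 H/ACA members medians of −0.99 and −0.92. Over all hosts, C/D members had medians of −0.57 and −0.49, and H/ACA members, a group that includes 4 of the 8 Taf1d genes, −0.27 and −0.35. By position, the medians at 24 h were −0.88 for the 22 snoRNA members within introns of ribosomal protein genes and −0.96 for the 9 that overlap an exon. Over all hosts, the 47 within introns had medians of −0.57 and −0.54 and the 22 that overlap an exon, including the 8 in Taf1d, −0.25 and −0.31. These values are descriptions without a test.

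The ratio of each nested gene to its host was tested directly, over all 1007 nested gene and host pairs of the filtered table. Relative to the host, 10 of the 77 member pairs were lower at 18 h (13.0%), beside 3.08% of all pairs, and 0 were higher, beside 0.993%. At 24 h 7 were lower (9.09%), beside 2.78% of all pairs, and 0 higher, beside 0.993%. Of these pairs, 7 at 18 h and 6 at 24 h were of members that held the minimum at each time point. The 7 called at 24 h were Snord100, Snord83b, Gm23639, Gm23130, Snord93, Snord35a and Snord43, of which Snord93 passed the minimum through its 0 h level. The log2 ratio of Snord100 to Rps12 changed by −1.53 (limma adjusted p=0.000930), that of Gm23639 to Epb41l4aos by −1.46 (limma adjusted p=0.00363) and that of Snord83b to Rpl3 by −1.37 (limma adjusted p=0.00138). In these 3 pairs the member fell further than its host. With the intensity trend left out of the model, 3 of the pairs were called at 24 h, and without 0 h replicate 2, 4 were.

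Across the 69 snoRNA pairs, member and host changes showed Pearson's r of 0.03 and Spearman's rho of 0.00 at 18 h, and 0.02 and −0.08 at 24 h. Genes within a host share that host's value, and these 69 pairs shared 42 hosts, whose changes at 24 h spanned only −0.51 to 0.26. Of all 77 pairs, 57 had the same sign in member and host at 24 h, and in 57 the member lay further from 0 than its host. The median change in the ratio was −0.31 at 18 h and −0.25 at 24 h for member pairs, and 0.04 at both times for the other 930 pairs.

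**Figure D3:**
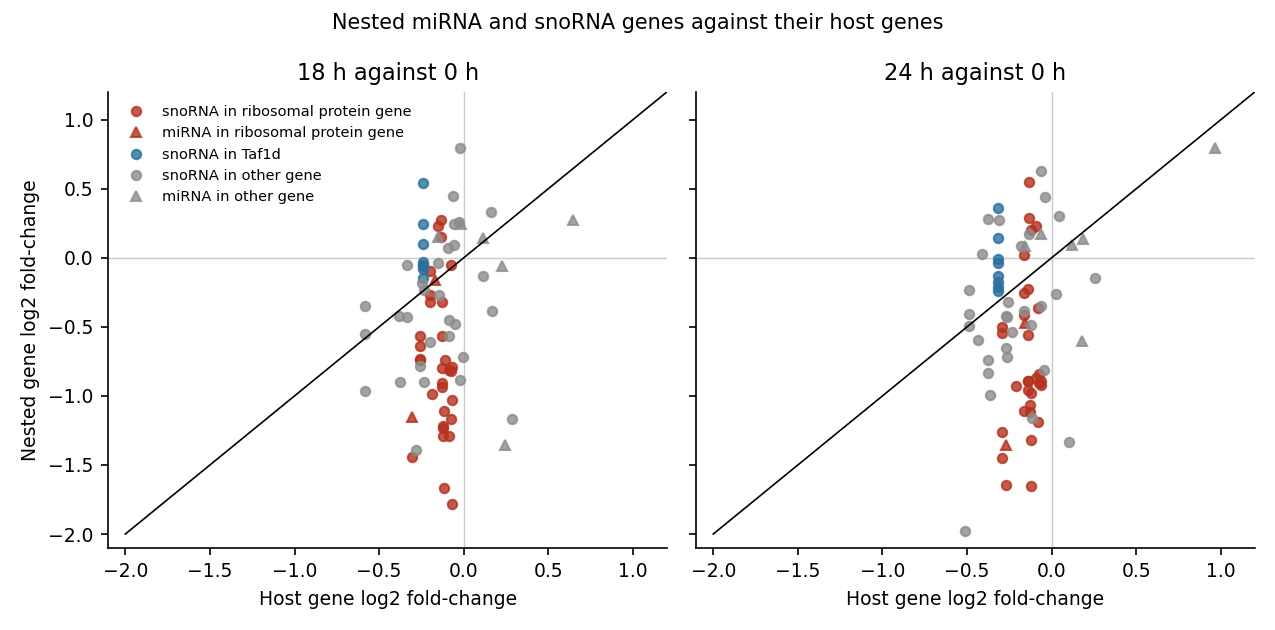
log2 fold-change of each nested member (y axis) against that of its host (x axis) at 18 h and 24 h for 77 pairs, coloured by host type, with circles for snoRNA and triangles for miRNA. The line marks equal change. Members in ribosomal protein genes spread from −1.65 to 0.55 at 24 h over hosts that lie between −0.29 and −0.06, and the triangle at the upper right is Mir1957a in Slc2a1.

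The snoRNA members in Taf1d lay above their host. At 24 h they ran from −0.24 to 0.36, with a median of −0.08, beside −0.32 for Taf1d (limma adjusted p=0.0574), and 0 were called in either comparison. The C/D gene Gm24357 was at 7.69, 10.4 and 8.14 CPM at 0 h, 8.36, 8.20 and 8.07 at 18 h, then 7.52, 6.92 and 8.01 at 24 h. The H/ACA gene Gm24455 was at 7.48, 8.80 and 5.65 CPM, then 6.99, 6.54 and 7.57, then 7.96, 6.60 and 6.99, and Gm23455 at 7.44, 8.13 and 5.37 CPM, then 6.82, 6.91 and 8.53, then 6.46, 6.28 and 7.43. In each case both time points in dox overlapped 0 h, and for Gm24357 the 24 h libraries lay below those of 18 h. All 8 overlap annotated exons of Taf1d, and the ratio to the host was 0.23 higher at the median at 24 h, with 0 of the 8 called.

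Other snoRNA members with many reads behaved between these extremes. Snora73b, an H/ACA gene that lies in Rcc1 and also within the annotated Snhg3, was at 14.96, 16.1 and 10.5 CPM at 0 h and at 9.06, 7.94 and 8.82 at 24 h. Its groups did not overlap, and the log2 fold-change of −0.66±0.16 passed the adjusted p (limma, 0.0147) but not the minimum fold-change. Snora57, without a host, was at 9.34, 7.50 and 6.15 CPM and then 5.63, 6.48 and 6.77 at 24 h, and did not pass (−0.26, limma adjusted p=0.312). Among members of at least 1 CPM, the highest log2 fold-changes at 24 h were those of Gm22270 (0.55), Snora31 in Tpt1 (0.44), Snora17 (0.44), Gm22620 in Taf1d (0.36), Snord7 in AA465934 (0.30) and Mir5125 (0.10). Of these Snora31 alone had its 24 h libraries, 2.92, 2.49 and 2.89 CPM, above all of those at 0 h, 1.902, 2.47 and 1.71 CPM, and its adjusted p was 0.182 in limma.

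Most reads on the miRNA class fell on 6 genes whose replicates spread widely. Mir6236 was at 204, 145 and 113 CPM at 0 h, 24.4, 53.4 and 159 at 18 h, then 40.6, 148 and 183 at 24 h. Gm23935 was at 205, 117 and 119 CPM at 0 h, 24.9, 53.2 and 151 at 18 h, then 41.0, 109 and 285 at 24 h. Within the 18 h and 24 h groups replicate 1 was low and replicate 3 high, and the groups overlapped. Gm24187, Gm24270, Gm25732 and Gm24245 had the same low libraries.

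Gm23935, Gm24270 and Gm24245 have an identical annotated sequence of 57 bases, and Gm24187 differs from it by the substitution G11A, counted from 1 at the 5′ end with the base of Gm23935 first. They are printed with that base in capitals, because the identical copies may share reads and their separate values are uncertain.
Gm23935 (chr16:11144125-11144181, plus strand): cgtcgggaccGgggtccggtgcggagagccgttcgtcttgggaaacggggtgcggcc
Gm24187 (chr13:9834469-9834525, minus strand): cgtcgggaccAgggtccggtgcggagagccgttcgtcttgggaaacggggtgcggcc

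None of the 6 genes was called by its level. The ratio of Gm24270 to its host Peak1 was among those called lower at 18 h, at −1.60 (limma adjusted p=0.0198), although this gene may share reads with its copies. At 18 h their log2 fold-changes ran from −1.41 to −1.10, with adjusted p in limma of 0.176 for Mir6236 and 0.130 for Gm24270, and at 24 h from −0.60 to 0.20. With the replicate block, 5 of them were called lower at 18 h, with adjusted p in limma of 0.0152 for Mir6236, 0.0207 for Gm23935, 0.0121 for Gm24187, 0.00454 for Gm24270 and 0.0210 for Gm25732, and 0 at 24 h. Within replicate 3, however, each of these 5 was higher at 18 h than at 0 h, as for Mir6236 at 159 and 113 CPM. By edgeR with the replicate block, Gm25732 was not called. The protein-coding gene Lars2, picked after its values were seen, had the same low libraries, at 1210, 996 and 755 CPM at 0 h, 196, 440 and 1002 at 18 h, then 324, 1021 and 1188 at 24 h. What these genes share in the libraries was not tested.

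**Figure D4:**
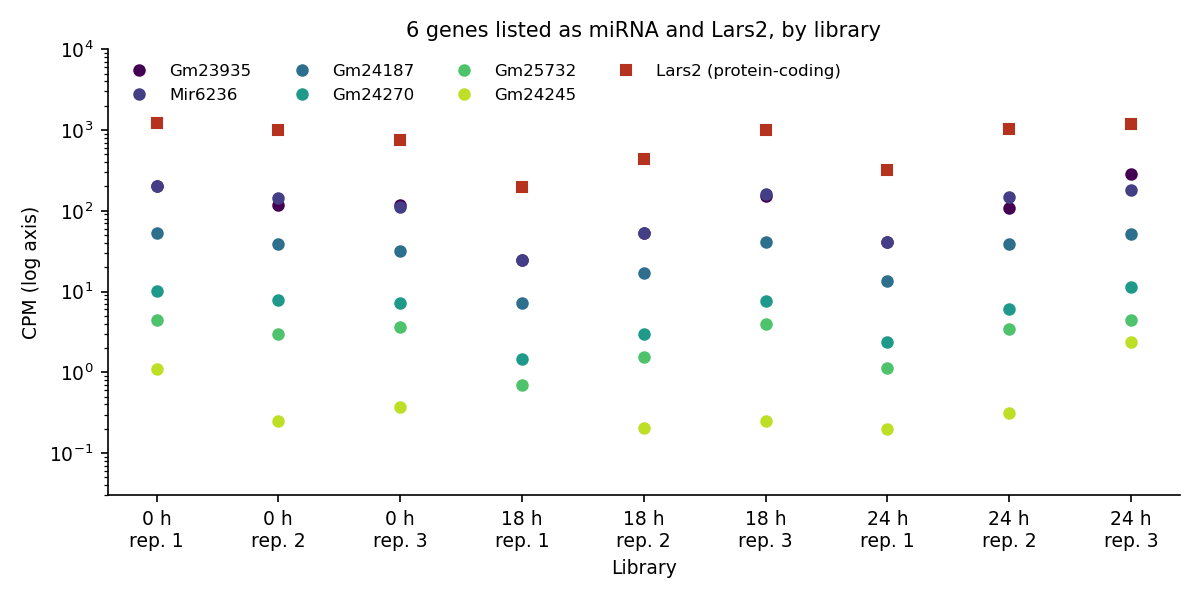
CPM on a log axis (y axis) of 6 genes listed as miRNA and of Lars2 in each of the 9 libraries (x axis). Each point is 1 library, and Gm24245 has no point in 18 h replicate 1, where it is at 0. Replicate 1 at 18 h and 24 h is low for all 7 genes, with Mir6236 at 24.4 and 40.6 CPM.

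The other 10 members listed as miRNA summed to 17.0, 17.9 and 12.7 CPM at 0 h, 12.7, 13.9 and 13.8 at 18 h, then 13.7, 13.0 and 13.5 at 24 h. Of these Snord43 alone was called. Mir5125, in the splicing factor gene Srrm2, was at 4.44, 3.44 and 3.10 CPM at 0 h and 3.98, 3.161 and 4.61 at 24 h, a change of 0.10 in log2 beside 0.12 for Srrm2. Mir7-1, in the RNA-binding protein gene Hnrnpk, was at 0.17 beside −0.06. Mir3091 in Rps21 was at −0.47 at 24 h. Mir363, of the cluster that also holds Mir106a, was at 1.73, 0.754 and 1.39 CPM at 0 h, 0.748, 0.646 and 0.665 at 18 h, then 1.14, 0.869 and 1.54 at 24 h. Its 18 h libraries lay below all of those at 0 h, but the difference did not pass (log2 fold-change −0.76, limma adjusted p=0.152).

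Mir1957a, in an intron of the glucose transporter gene Slc2a1, was chosen partly on its 24 h level, since it held the minimum at 24 h alone. It was at 0.507, 0.377 and 0.278 CPM at 0 h, 0.616, 0.323 and 0.541 at 18 h, then 0.748, 0.672 and 0.769 at 24 h. The 24 h libraries were above those of 0 h, and the log2 fold-change of 0.79±0.31 did not pass (limma adjusted p=0.109). Its host rose over the same times by 0.65 (limma adjusted p=0.000300) and 0.97 (limma adjusted p=8.67e-06), both under the minimum of 2-fold, and the ratio between them changed by −0.17 at 24 h (limma adjusted p=0.810).

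Well-known miRNA groups of ESCs and of differentiation were almost absent from the members. Of the 76 genes of 17 such groups in the FPKM table, 7 were in the filtered table and 1, Mir363, was a member. None of the 11 let-7 genes, the 9 genes of the Mir290 to Mir295 cluster or the 3 Mir9 genes was in the filtered table. Of the Mir302 and Mir367 cluster, Mir302b and Mir367 had means of 0.441 and 0.403 CPM, near the minimum, and the others lay between 0.186 and 0.222 CPM. Mir302b was at 0.0423, 0.0419 and 0.0463 CPM at 0 h, or 1 read in each library, and at 0.158, 0.553 and 1.76 at 24 h, and like Mir302c was called higher by then. Mir302a, Mir302d and Mir367 were not called at 24 h, when 2.83% of all genes were called higher. Mir106b, in Mcm7, was called lower, with 0.127, 0.335 and 0.139 CPM at 0 h and 0 reads in each library at 24 h. The kit selects polyadenylated RNA, so these values are no measure of the mature miRNAs.

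Genes that process miRNAs or assemble snoRNPs moved by less than the minimum, and 0 of the 90 that were tested, hosts of snoRNAs included, were called at either time. Of all genes, 0.973% were called lower and 2.06% higher at 18 h, and 1.19% lower and 2.83% higher at 24 h. Among 23 miRNA processing genes, 3 rose and 1 fell at 18 h, and 2 rose and 3 fell at 24 h, by the adjusted p alone. Of all genes, 6.03% were higher and 4.51% lower by this measure at 18 h, and 8.09% higher and 5.94% lower at 24 h. Ago1, an Argonaute gene, was at 0.52 and 0.60 (limma adjusted p=0.000298 and 7.36e-05). Lin28a, which blocks let-7 maturation, was at −0.30 and −0.32, whereas Drosha and Dicer1, the nucleases of the pathway, were at −0.06 and 0.16 at 24 h and did not pass.

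The core C/D genes were lower at 24 h, with 3 of 4 past the adjusted p, beside 5.94% of all genes. The methyltransferase gene Fbl was at −0.24, Nop56 at −0.31 and Nop58 at −0.33. Of the 4 core H/ACA genes, Nhp2 at −0.45 and Nop10 at −0.27 passed the adjusted p at 24 h, while the pseudouridine synthase gene Dkc1 at −0.23 and Gar1 at −0.25 did not. Of 14 assembly and Cajal body genes, 4 were lower at 24 h by the adjusted p alone. By this measure 4.51% of all genes were lower at 18 h and 5.94% at 24 h. Of the 45 snoRNA host genes found among 50 listed, 8 were lower at 18 h and 9 at 24 h by the adjusted p alone and 0 were higher. Among them Gas5 was at −0.46 and Snhg1 at −0.76 at 24 h, both non-coding hosts of many snoRNAs, although neither held a member.

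Among other RNAs that lack a long poly(A) tail, some were lower at the same times. The larger mitochondrial rRNA gene mt-Rnr2 fell by 1.01 and 1.10 on the log2 scale (limma adjusted p=0.000706 and 0.000295), whereas mt-Rnr1 was at −0.18 and −0.31 and was not called. The 6 mitochondrial tRNA genes of at least 0.5 CPM, summed, were at 14.8, 18.5 and 13.9 CPM at 0 h, 5.98, 6.71 and 6.36 at 18 h, then 7.60, 5.37 and 5.42 at 24 h, and 3 of them were called lower at each time. Of the 6, mt-Tm, was instead at 0.83 at 18 h, with all libraries above those of 0 h, and did not pass (limma adjusted p=0.0813). The 2 snRNA genes of at least 0.5 CPM kept 87.3% and 97.3% of their summed 0 h level, the 2 misc_RNA genes 103.8% and 97.7%, and 0 of either were called. These RNAs were picked after values were seen. The 22 sense-intronic genes of at least 0.5 CPM had medians of 0.20 and 0.14. The part of poly(A) selection in the fall of the snoRNA members was not tested.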

How the data were processed

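RNA-seq libraries of dox-inducible E2A homodimer ESCs, taken without dox or after 18 h or 24 h in it, with 3 replicates each, were analysed as deposited. The authors made strand-specific poly(A)-selected libraries, aligned reads to GRCm38 and, per the labels, used cutadapt 1.9 and edgeR 3.16.5. How strand and multiply aligned reads were counted is not given in the sources used here. The authors deposited FPKM values, scaled for length and depth, for 47729 genes. They also deposited a filtered table of 19210 genes with a signal for each library, CPM relative to an adjusted depth. The authors' own log2 fold-change and p-value columns in that table were not used.

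Reads were recovered from the signal, with 100% of values whole within 0.01 reads, at 22028363 to 26471569 reads per library. Replicates differed by more than sampling noise, the chi-square per degree of freedom between pairs being 5.45 to 16.5. The main test was limma 3.58.1 in R 4.3.3 (lmFit, eBayes with intensity trend) on log2(CPM+0.1) over all genes and libraries, with no replicate block and Benjamini–Hochberg adjustment. This scale compresses fold-changes of low genes. Calls needed an adjusted p of 0.05 or less and a change of 2-fold or more. The ratio to the host was tested likewise on 1007 pairs. The design file had allowed for raw counts, and edgeR 4.0.16 and DESeq2 1.42.0 on the recovered reads were alternatives. Scripts were tested on simulated data.

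Hosts, positions and sequences came from GENCODE M21, which held 19147 of the 19210 genes. Named members were those called, the 5 with most reads per class, the 6 highest and 6 lowest at 24 h among members of at least 1 CPM, and those of listed miRNA groups. Of those called, 1 is counted but not reported by name here. Members and lists were chosen with earlier results of these data known. Same-numbered replicates deviated together (9 pairs, r=0.293 to 0.721, from the labels' replicate numbers), whereas the 18 pairs with different numbers gave −0.533 to 0.106, so the replicate block was fitted as an alternative. Replicates are biological per the study's methods.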

Additional observations from a re-analysis of the deposited data

How the results depend on the processing

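Members called lower at 18 h numbered 12, against 7 with a pseudocount of 0.5 CPM and 19 by edgeR with the replicate block, which changes both tool and block. Leaving out each library in turn gave 9 to 15. At 24 h, 10 were lower, against 5 with a pseudocount of 0.5 CPM and 17 with median centring. There were 18 by edgeR with the replicate block and 9 to 15 with a library left out. Without a minimum fold-change 18 of the 88 were lower (20.5%, beside 5.94% of all genes). Without a minimum CPM 18 were lower, but among a larger set, the 257 genes of the 3 classes. By limma with the replicate block, the counts were 18 and 13. None of the scalings tried moved the median of all genes by over 0.1 on the log2 scale. Members called higher stayed at 0 under these alternatives, except for 3 of the 257 genes at 24 h without a minimum CPM. Restricting members to those above the minimum at every time point, chosen after seeing the data, gave 8 and 8. Machinery genes called at 24 h numbered 0, and 23 without a minimum fold-change. Ratios called at 24 h numbered 7, against 3 with a pseudocount of 0.5 CPM, 3 without an intensity trend, 11 with the largest host, 11 without a minimum change and 4 to 8 with a library left out. With the replicate block 8 were called, and among members above the minimum at every time point, chosen after seeing the data, 6.

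For named members, no called value reversed. Of the 22 calls, 12 held under each alternative run and 10 were ended by at least 1. The pseudocount of 0.5 CPM ended these 10, and was alone in ending those of Snord34 at 24 h and Snord43 at both times. Leaving out a library ended 7, among them Gm24044 and Gm24336 at 24 h without 24 h replicate 2, Gm24336, Rnu73b and Snord4a without 0 h replicate 1, Rnu73b without 18 h replicate 3 and Snord4a without 18 h replicate 1. Of uncalled ones, Gm24455 turned to 0.0026 at 18 h and 0.0477 at 24 h with CPM by total reads and to 0.0008 at 24 h on log2(FPKM+0.1), and Gm23455 to 0.0187 at 24 h with CPM by total reads. With a library left out, the log2 fold-change at 24 h ranged from −1.08 to 0.32 for Gm23935, −0.95 to 0.14 for Mir6236, −0.80 to 0.15 for Gm24187, −0.0272 to 0.24 for Mir5125, −0.18 to 0.14 for Gm24455, −0.21 to 0.0843 for Gm23455 and −0.40 to 0.15 for Mir363. At 18 h it ranged from −0.17 to 0.0518 for Gm24357, −0.21 to 0.11 for Gm24455, −0.0748 to 0.22 for Gm23455, −0.0456 to 0.50 for Snora17 and −0.10 to 0.54 for Gm22270. Members with few reads limit these comparisons, since called members held as few as 4 reads in a library.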
